A study of Homo sapiens with 27 samples.

Results

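The levels of 55 genes for nucleolar ribosome biogenesis factors and for MYC were compared across 4 lines of T47D cells. The members were taken by gene symbol from the table of counts per gene, where 55 of 26485 listed genes matched, and all 55 were among the 14789 genes that passed the filter on low counts and were tested. By their known roles, 6 members belong to RNA polymerase I transcription, 20 to processing of the small subunit rRNA, 17 to assembly of the large subunit, 8 to snoRNPs and 3 are abundant multifunctional nucleolar proteins. MYC is the single transcription factor among them.

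Ribosomes are built mainly in the nucleolus, where RNA polymerase I copies the ribosomal DNA into a long precursor RNA. Small nucleolar ribonucleoproteins (snoRNPs) modify this precursor, and large sets of processing and assembly factors cut and fold it into the small and large ribosomal subunits. MYC is a transcription factor known to activate genes of this pathway through binding, as a dimer with MAX, to E-box sequences near gene starts, and it is widely studied in luminal breast cancer.

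T47D is an established luminal, estrogen receptor positive breast cancer cell line, and all 4 lines were pools of T47D cells transduced with a pHAGE lentiviral vector and selected with puromycin. The control line carried the empty vector, and the other lines expressed a truncated GATA3 (a transcription factor of luminal cells) from the vector, named Splice del, C321fs or A333fs and tagged with 3xTy1. The wild-type GATA3 gene of T47D was still present in every line, and each mutant was 1 pool of transduced cells. Each line had 3 RNA-seq libraries, which the study calls biological replicates without naming separate cultures, so p-values measure only the spread between libraries of 1 pool.

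Between 27872208 and 36788024 fragments were counted per library. Of 10 luminal epithelial markers, among them EPCAM, KRT8, KRT18, ESR1 and FOXA1, none was at or below 3 counts in every library of a line, and their summed level was 18900 to 22100 CPM (counts scaled to a fixed library total) in control, 13000 to 13800 in Splice del, 13400 to 14100 in C321fs and 14500 to 15700 in A333fs libraries. Of 11 markers of fibroblasts, leukocytes, endothelium and basal cells, PDGFRB, PTPRC, CD3E, PECAM1, CDH5 and KRT5 stayed at or below 3 counts in every library, and the list summed to 31.8 to 66 CPM. The other 5 (COL1A1, COL3A1, CD14, KRT14 and TP63) passed the filter, with COL1A1 at a mean of 42.5 CPM. All 5 differed among the lines. Against control 1, 2 and 2 of them were lower and 1, 1 and 2 higher in Splice del, C321fs and A333fs cells. The keratins KRT8 (-1.02, -0.84 and -0.49 on the log2 scale against control in Splice del, C321fs and A333fs cells), KRT18 and KRT19 were lower in each mutant line, while EPCAM was higher in each (0.42, 0.37 and 0.37), and of the 10 markers 3, 4 and 5 were lower and 3, 1 and 3 higher. These sums moved with the lines and their part in the results was not tested. The libraries were made from bulk RNA, in which fewer cells with a transcript cannot be told apart from less of it per cell.

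CPM were scaled by the trimmed mean of M-values (TMM), which takes most genes as unchanged between libraries. The factors were 0.884 to 0.943 in control and 1.01 to 1.05 in mutant libraries. A member was called lower or higher when edgeR's quasi-likelihood test, fitted on all 12 libraries and all tested genes, gave a p below 0.01 after Benjamini-Hochberg adjustment, and 1.5-fold was a further limit. Fold changes are given as log2 values with the standard error (SE) of the fit. The 3 comparisons with control share the control libraries and so are not independent of each other.

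More members were lower than higher in each mutant line with TMM scaling, and Splice del cells had the most lower members. In Splice del cells 33 of 55 members were lower than in control and 0 were higher, against 22.4% and 18.7% of all tested genes. In C321fs cells 27 members were lower and 3 higher, against 20.7% and 16.1% of all genes. In A333fs cells 24 members were lower and 6 higher, against 26.4% and 21% of all genes. With library totals alone, 21 were lower and 5 higher in Splice del cells, 16 lower and 9 higher in C321fs cells, and 15 lower and 19 higher in A333fs cells. With upper-quartile factors, 20 were lower and 6 higher in C321fs cells and 17 lower and 18 higher in A333fs cells. The share of all genes called was not counted for either scaling. All tested genes also moved up, with medians of 0.22, 0.19 and 0.16 with library totals and 0.12, 0.11 and 0.12 with upper-quartile factors. The members past 1.5-fold with TMM scaling numbered 14, 7 and 8 across the 3 mutant lines in that order, all of them lower, where 10.7%, 6.88% and 12.3% of all genes passed in either direction. Without control replicate 2 the C321fs and A333fs counts past 1.5-fold were 4 and 5. The count of higher members in C321fs cells was 1 without C321fs replicate 2, C321fs replicate 3, control replicate 1 or control replicate 2, and 6 without C321fs replicate 1. The count of higher members in A333fs cells was 3 without control replicate 1 or control replicate 2.

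The median log2 fold change of the members was -0.31, -0.19 and -0.07 in the Splice del, C321fs and A333fs lines, where the median of all tested genes was 0.03, 0.02 and 0.01. These medians depended on the scaling. With library totals alone the members' medians were -0.13, -0.02 and 0.08 and those of all genes 0.22, 0.19 and 0.16, and with upper-quartile factors the A333fs median was 0.04, so the direction in A333fs cells turned. Relative to the median of all genes, the members' median stood at -0.35, -0.21 and -0.08 with TMM and at -0.35, -0.21 and -0.08 with library totals. A scaling factor shifts all genes of a library alike, so this equality was fixed in advance and is no test of the scaling. Before any scaling, the members took 0.748% to 0.755% of all counted fragments in control, 0.684% to 0.694% in Splice del, 0.717% to 0.774% in C321fs and 0.787% to 0.794% in A333fs libraries. NPM1, the most abundant member, takes the largest part of that share.

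**Figure D1:**
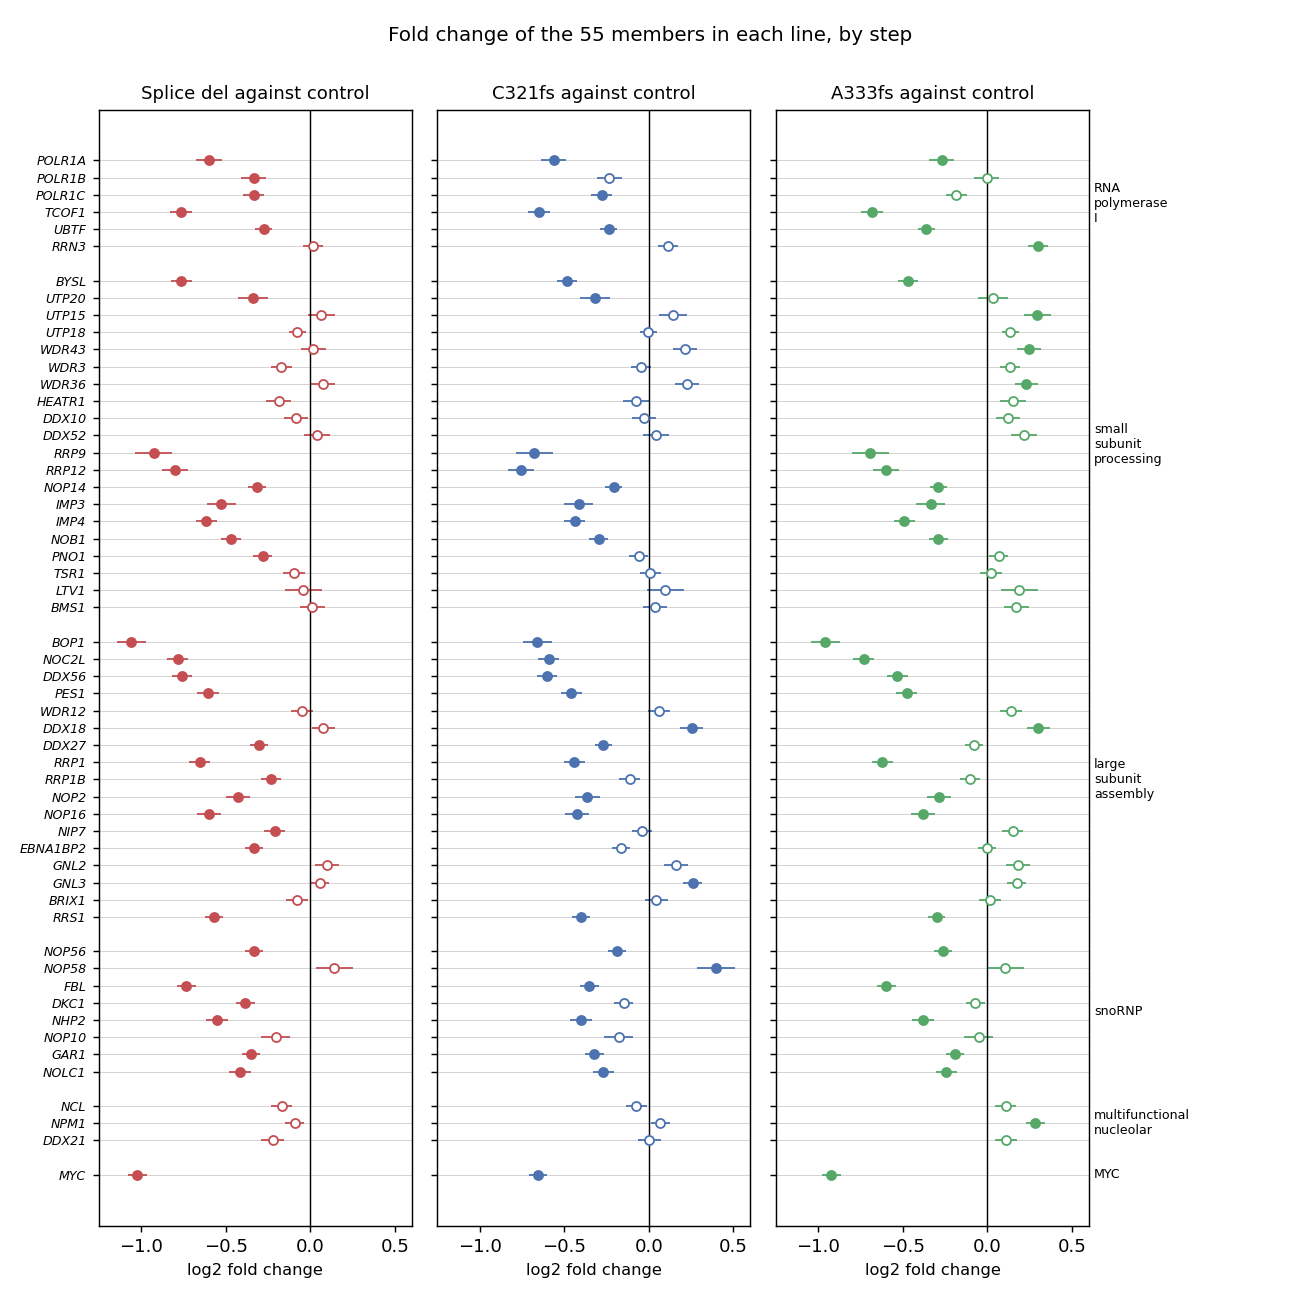
Log2 fold change of each of the 55 members against control (x axis) in Splice del, C321fs and A333fs cells, grouped by step; points are the fitted values, bars are ±1 SE and filled points have an adjusted p below 0.01. The filled points to the left of the zero line number 33, 27 and 24, and those to the right 0, 3 and 6.

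The libraries of the mutant and control lines did not overlap for 40, 36 and 43 members in Splice del, C321fs and A333fs cells, or 72.7%, 65.5% and 78.2% of the members. The same was seen for 62.9%, 54.1% and 65.5% of all tested genes. An adjusted p below 0.01 for any difference among the 4 lines was reached by 42 members (76.4%) and by 56.2% of all genes.

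The names behind these counts are given side by side, and because the comparisons share the control libraries their overlap is a description and no result. The 24 members lower in A333fs cells were also called in the other lines and comprised POLR1A, TCOF1, UBTF, BYSL, RRP9, RRP12, NOP14, IMP3, IMP4, NOB1, BOP1, NOC2L, DDX56, PES1, RRP1, NOP2, NOP16, RRS1, NOP56, FBL, NHP2, GAR1, NOLC1 and MYC. POLR1C, UTP20 and DDX27 passed as lower in Splice del and C321fs cells, and POLR1B, PNO1, RRP1B, NIP7, EBNA1BP2 and DKC1 in Splice del cells, without passing elsewhere. The other 22 members were lower in no line, and 8 of these were higher in at least 1 line (RRN3, UTP15, WDR43, WDR36, DDX18, GNL3, NOP58 and NPM1).

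The base composition of the transcripts moved with these calls. Exon GC content was at least 50% in 26 members, of which 25, 23 and 21 were lower in Splice del, C321fs and A333fs cells and 0 were higher. Of the 29 members with less exon GC, 8, 4 and 3 were lower and 0, 3 and 6 higher. The shares of all tested genes called on either side of 50% GC were not counted. These counts therefore do not show whether the split is particular to the members. The 8 members that were higher in some line had exon GC between 37.3% (WDR36) and 44.6% (GNL3). Across all tested genes, a library's log2 level relative to the mean of all 12 changed by 0.153 to 0.233 per 10 points of GC in the 3 control libraries and by -0.17 to 0.059 in the mutant libraries. Every control library thus stood above every mutant library in this slope, and a GC-dependent difference between library preparations and a difference between lines cannot be told apart in this design.

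When a smooth trend over exon GC and exon length, fitted in each library on genes outside the pathway lists, was removed, 52, 40 and 27 members were lower in Splice del, C321fs and A333fs cells and 0 were higher. Values from this fit are called GC-adjusted below. The same fit called 28.3%, 22.9% and 21.4% of all tested genes lower and 12%, 9.08% and 10.2% higher. The members' medians were then -0.38, -0.25 and -0.16, and those of all genes -0.06, -0.05 and -0.05. Relative to the median of all genes, the members' median stood at -0.32, -0.20 and -0.11, against -0.35, -0.21 and -0.08 with TMM alone. In Splice del and C321fs cells the larger count of lower members thus came without a larger relative shift. The members with less than 50% GC were lower in 27, 18 and 9 cases, and those with at least 50% in 25, 22 and 18. The shares of all genes on either side of 50% GC were not counted in this fit either. Of the lower calls made without this step, those of UBTF and NOP56 in C321fs cells and of POLR1A, IMP3, NOP2 and RRS1 in A333fs cells were lost. The members past 1.5-fold numbered 9, 2 and 1, and the share of all genes past it in this fit was not counted.

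**Figure D2:**
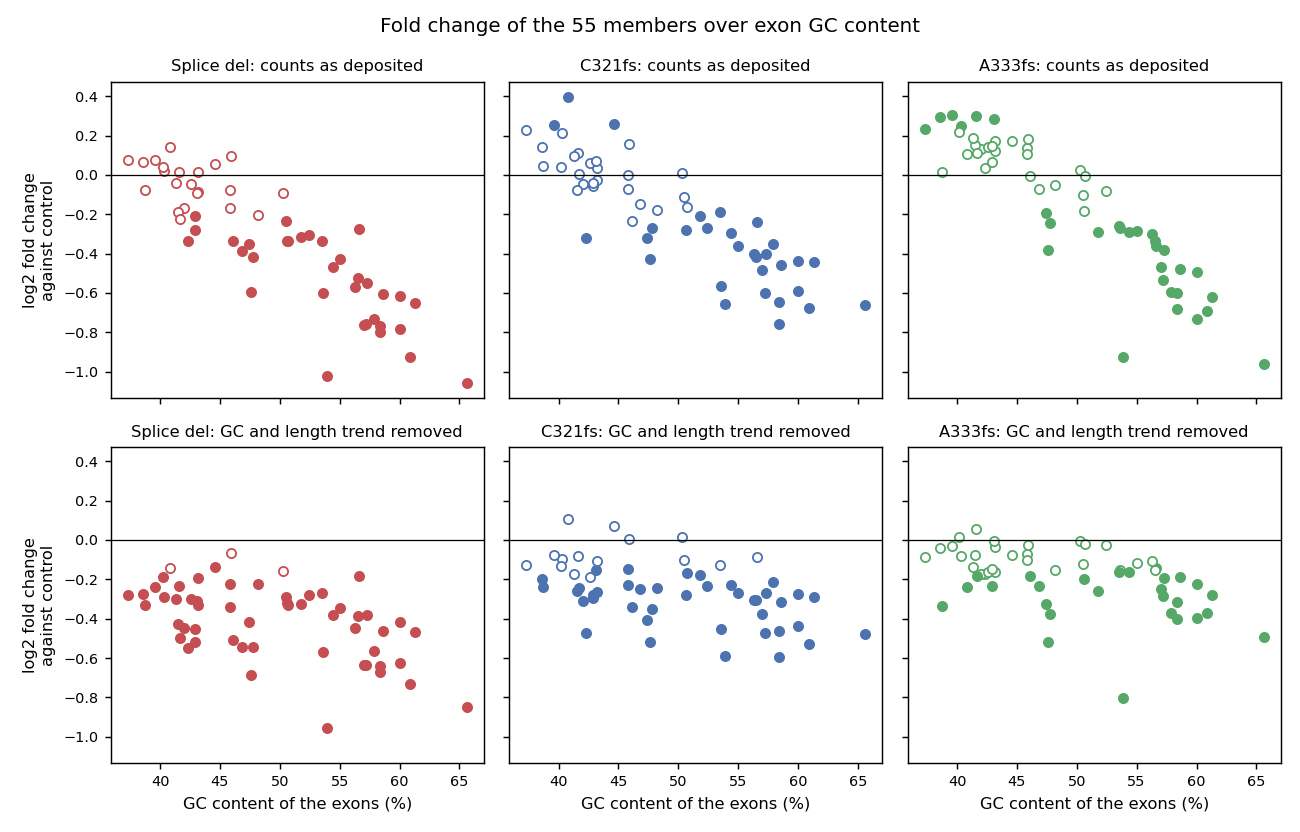
Log2 fold change against control (y axis) over exon GC content in percent (x axis) for the 55 members in each mutant line, from the counts as deposited (top) and after removal of the GC and length trend (bottom); filled points have an adjusted p below 0.01. In the top panels the 26 members at or above 50% GC hold 25, 23 and 21 lower calls, and in the bottom panels 52, 40 and 27 of all members are called lower.

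The promoters of the members were searched for the E-box CACGTG, the sequence to which dimers of MYC and MAX are known to bind. It reads the same on both strands and was the only motif searched. RefSeq promoters of 300 bases (250 before and 50 after the gene start, GRCh38.p14) were found for 45 of the 55 members, and 15 of these held CACGTG (33.3%), against 2030 of 27305 promoters of all genes (7.43%). In the 150 bases from 100 before to 50 after the start, 14 members (31.1%) and 4.44% of all promoters held it. The set of all promoters includes genes that did not pass the filter on low counts, while every member did, so the sets are unlike. The 15 members were BYSL, UTP20, UTP18, WDR43, RRP9, NOP14, IMP4, PNO1 and LTV1 of the small subunit, PES1, NOP2, EBNA1BP2 and GNL2 of the large subunit, and FBL and NOP10 of the snoRNPs. Of the members described with values in every library below, 5 had the motif, and their promoters are shown to place it, 5′ to 3′ on the strand of the gene with CACGTG in capitals.
BYSL (chr6:41921249-41921548, plus strand): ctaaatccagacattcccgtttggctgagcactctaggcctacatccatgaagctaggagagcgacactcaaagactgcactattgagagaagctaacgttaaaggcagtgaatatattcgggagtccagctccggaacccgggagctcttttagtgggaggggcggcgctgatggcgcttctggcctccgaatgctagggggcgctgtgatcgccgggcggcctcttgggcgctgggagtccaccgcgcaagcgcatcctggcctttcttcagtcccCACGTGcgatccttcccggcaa
RRP9 (chr3:51941855-51942154, minus strand): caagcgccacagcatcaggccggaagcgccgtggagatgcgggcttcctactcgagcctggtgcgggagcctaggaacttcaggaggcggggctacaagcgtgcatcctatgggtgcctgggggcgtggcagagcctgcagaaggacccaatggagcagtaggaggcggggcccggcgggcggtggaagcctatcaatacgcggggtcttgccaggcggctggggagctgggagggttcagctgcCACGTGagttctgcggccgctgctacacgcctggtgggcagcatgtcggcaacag
IMP4 (chr2:130342647-130342946, plus strand): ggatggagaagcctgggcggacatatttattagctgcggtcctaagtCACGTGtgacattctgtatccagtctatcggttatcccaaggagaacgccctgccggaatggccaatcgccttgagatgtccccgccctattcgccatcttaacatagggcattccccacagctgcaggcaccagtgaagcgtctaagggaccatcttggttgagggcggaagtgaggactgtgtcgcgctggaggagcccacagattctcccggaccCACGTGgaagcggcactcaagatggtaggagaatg
PES1 (chr22:30591861-30592160, minus strand): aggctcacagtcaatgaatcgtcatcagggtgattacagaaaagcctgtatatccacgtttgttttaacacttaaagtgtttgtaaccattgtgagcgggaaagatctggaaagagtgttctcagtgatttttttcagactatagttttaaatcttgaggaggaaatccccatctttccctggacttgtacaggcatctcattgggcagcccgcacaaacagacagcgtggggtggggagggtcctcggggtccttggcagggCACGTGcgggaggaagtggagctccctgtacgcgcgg
FBL (chr19:39846330-39846629, minus strand): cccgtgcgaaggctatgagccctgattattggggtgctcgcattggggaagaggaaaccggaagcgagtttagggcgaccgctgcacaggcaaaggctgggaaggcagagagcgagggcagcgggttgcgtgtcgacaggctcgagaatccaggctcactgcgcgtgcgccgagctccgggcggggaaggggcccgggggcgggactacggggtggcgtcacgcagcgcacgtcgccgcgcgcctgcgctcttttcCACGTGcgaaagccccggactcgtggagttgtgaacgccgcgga

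Positions were counted from the start on which each promoter window was built. The motif began at position 29 in BYSL, at -5 in RRP9 and at -203 and 16 in IMP4. It began at 14 in PES1 and at 7 in FBL, so that 4 of these 5 promoters held it within 50 bases after that start. The exons listed for BYSL and PES1 begin before their windows, at chr6:41921227 and chr22:30607013. Those of RRP9, IMP4 and FBL begin inside the windows, at chr3:51941941, chr2:130342916 and chr19:39846414, but not at the start used. The motif positions of these 5 genes therefore do not hold for the starts of the listed exons. Of the 15 members with the motif, 10, 8 and 7 were lower in Splice del, C321fs and A333fs cells. Of the 30 members whose promoter lacked it, 16, 13 and 11 were lower. Higher calls numbered 0, 0 and 1 with the motif and 0, 1 and 4 without it. With GC adjustment, 14, 12 and 7 were lower with the motif and 29, 22 and 14 without it. The medians were -0.33, -0.21 and -0.05 with the motif and -0.25, -0.11 and 0.00 without it, and once the GC and length trend was removed they were -0.35, -0.24 and -0.17 with it and -0.36, -0.25 and -0.16 without it. A match to these letters is a description of the window and was not tested for binding.

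RNA polymerase I transcription had 5, 4 and 3 of 6 members lower in Splice del, C321fs and A333fs cells and 0, 0 and 1 higher, with medians of -0.33, -0.26 and -0.23. In the GC-adjusted fit 6, 4 and 4 were lower and 0 higher. Of all tested genes, 22.4%, 20.7% and 26.4% were lower and 18.7%, 16.1% and 21% higher. In the GC-adjusted fit these shares were 28.3%, 22.9% and 21.4% lower and 12%, 9.08% and 10.2% higher. POLR1A, the largest subunit of RNA polymerase I (hg38 chr2:86026328-86106155, minus strand), was at 73.7, 79.4 and 73.1 CPM in the control libraries, at 47.8, 49 and 52.7 in Splice del, at 45.6, 51.7 and 55.9 in C321fs and at 58, 63.1 and 66.4 in A333fs libraries. All 9 mutant libraries were below the 3 control libraries, and A333fs stood between control and the other mutants. Its log2 fold changes were -0.60, -0.56 and -0.27 (SE 0.075 each), with edgeR adjusted p of 1.01e-05, 3.18e-05 and 0.00534. The A333fs call was lost without control replicate 1 or 2 or A333fs replicate 1 or 2, where the fold change ranged over -0.32 to -0.22 with any single library left out, and when the GC and length trend was removed (-0.15, edgeR adjusted p 0.0274).

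TCOF1, which encodes treacle, a nucleolar protein that holds RNA polymerase I and UBTF at the ribosomal DNA (chr5:150357639-150400308, plus strand), was at 204, 226 and 196 CPM in control, at 124, 118 and 125 in Splice del, at 126, 130 and 144 in C321fs and at 127, 127 and 137 in A333fs libraries. The 9 mutant libraries lay between 118 and 144 CPM, all below the 3 control libraries. The log2 fold changes were -0.77, -0.65 and -0.68 (SE 0.064 each; edgeR adjusted p 2.4e-07, 2.98e-06 and 5.95e-07), past 1.5-fold in each line. GC adjustment gave values of -0.64, -0.46 and -0.40, lower in each line and past 1.5-fold in Splice del. UBTF, the HMG-box factor of the ribosomal DNA promoter (chr17:44205033-44221626, minus strand), was at 216, 227 and 204 CPM in control, at 181, 173 and 179 in Splice del, at 183, 184 and 181 in C321fs and at 170, 165 and 168 in A333fs libraries. Its decrease was smaller, by -0.28, -0.24 and -0.36 (SE 0.05; edgeR adjusted p 0.000243, 0.00108 and 1.73e-05). Once the GC and length trend was removed, the C321fs value was -0.09 (edgeR adjusted p 0.0859), and with library totals alone the Splice del and C321fs calls were lost.

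Among the other RNA polymerase I members, POLR1B, the second largest subunit, was called lower in Splice del cells (-0.33), and POLR1C, a subunit shared with RNA polymerase III, was lower in Splice del (-0.33) and C321fs cells (-0.28). The GC-adjusted values of POLR1B (-0.51, -0.34 and -0.18) and POLR1C (-0.32, -0.28 and -0.20) passed in each line. RRN3, the initiation factor that recruits the polymerase, was higher in A333fs cells (0.30, edgeR adjusted p 0.000537) and at 0.02 and 0.11 in the other lines. Its GC-adjusted values were -0.23, -0.08 and 0.05, of which the Splice del value passed as lower, and the gene has 3 annotated pseudogenes and copies on alternate contigs that can take its reads.

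**Figure D3:**
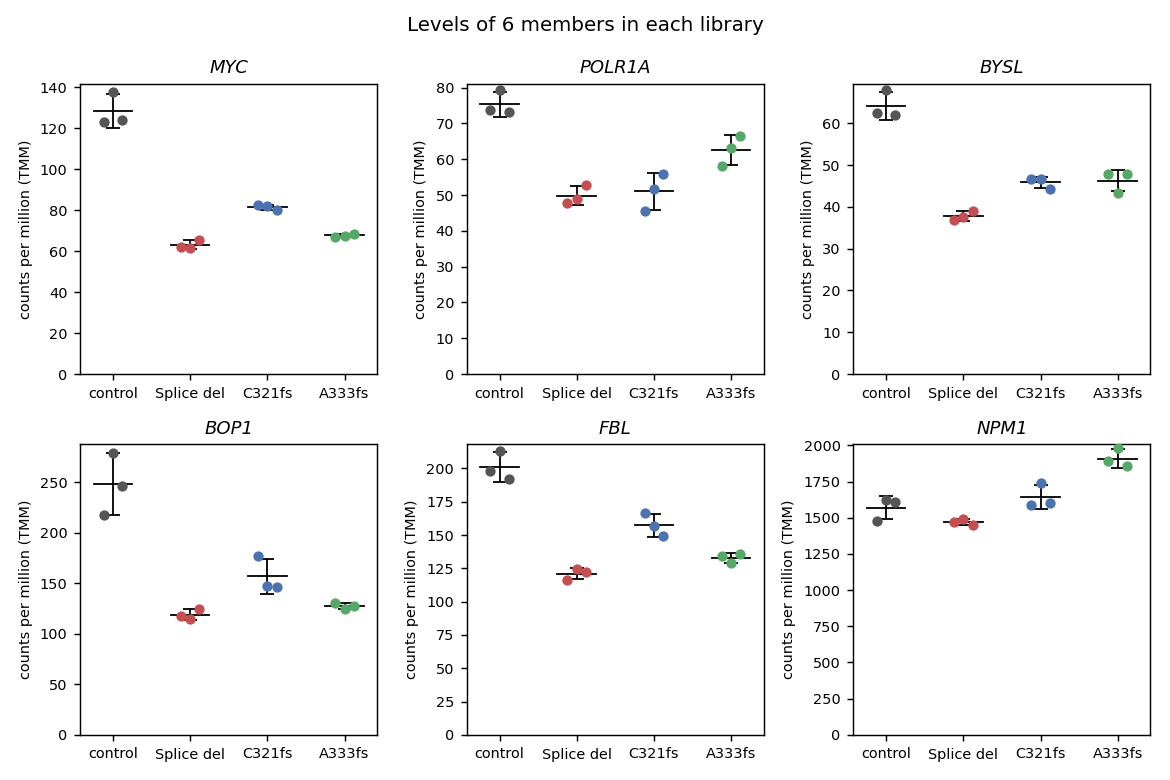
CPM after TMM scaling (y axis, from 0) of MYC, POLR1A, BYSL, BOP1, FBL and NPM1 in each of the 12 libraries; points are libraries, horizontal lines are means of 3 libraries and bars are ±1 SD. MYC lies at 123 to 138 in control and at 61.7 to 82.5 in the mutant libraries, while NPM1 is highest in A333fs libraries at 1856 to 1980.

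Of the 20 small subunit processing factors, 9, 8 and 7 were lower in Splice del, C321fs and A333fs cells and 0, 0 and 3 higher, with medians of -0.18, -0.05 and 0.09. Of all tested genes, 22.4%, 20.7% and 26.4% were lower and 18.7%, 16.1% and 21% higher. The A333fs shares of these factors, 35% lower and 15% higher, were near those of all genes. With the GC and length trend removed, 28.3%, 22.9% and 21.4% of all genes were lower. Of the 20 factors, 19, 14 and 7 were then lower and 0 higher. Their medians were -0.36, -0.24 and -0.16, so the direction of the A333fs median turned. Bystin, encoded by BYSL and needed for maturation of the small subunit (chr6:41921227-41933046, plus strand), was at 62.4, 67.9 and 62 CPM in control, at 36.8, 37.6 and 39.1 in Splice del, at 46.7, 46.6 and 44.3 in C321fs and at 47.8, 43.3 and 47.8 in A333fs libraries. Control was highest, Splice del lowest, and C321fs and A333fs overlapped between them. The log2 fold changes against control were -0.76, -0.48 and -0.47 (SE 0.06; edgeR adjusted p 1.18e-07, 1.61e-05 and 8.54e-06). The GC-adjusted values, -0.63, -0.38 and -0.25, passed as lower as well.

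RRP9, a protein of the U3 snoRNP that guides the first cuts of the precursor (chr3:51933426-51941941, minus strand), was at 38.4, 47.4 and 41.2 CPM in control, at 21.7, 21.5 and 23.8 in Splice del, at 32.5, 23.2 and 23.6 in C321fs and at 26.4, 27.4 and 24.9 in A333fs libraries. C321fs replicate 1 stood apart from the other C321fs libraries, and no mutant library reached the control range. The log2 fold changes were -0.93, -0.68 and -0.69 (SE 0.11; edgeR adjusted p 6.51e-06, 0.00015 and 6.54e-05), past 1.5-fold in each line. The GC-adjusted values were -0.73, -0.53 and -0.37, lower in each line and past 1.5-fold in Splice del. RRP12, a repeat protein that accompanies precursors of the small subunit out of the nucleus (chr10:97356701-97401370, minus strand), was at 158.5, 189.6 and 165.3 CPM in control, at 91.1, 96.9 and 107.6 in Splice del, at 98.4, 96.9 and 108.4 in C321fs and at 112.7, 106.7 and 119.6 in A333fs libraries. It was also past 1.5-fold in each line, by -0.80, -0.76 and -0.60 (SE 0.077; edgeR adjusted p 1.01e-06, 3.43e-06 and 9.87e-06). Its GC-adjusted values were -0.67, -0.59 and -0.31, lower in each line, the last no longer past 1.5-fold.

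IMP4, which joins IMP3 in the U3 snoRNP (chr2:130342916-130346624, plus strand), was at 93.1, 100 and 90.6 CPM in control, at 59.6, 61.4 and 64.5 in Splice del, at 75, 69.6 and 64.9 in C321fs and at 68.6, 66.1 and 67 in A333fs libraries. Its fold changes were -0.61, -0.44 and -0.49 (SE 0.062; edgeR adjusted p 1.42e-06, 4.91e-05 and 7.8e-06), past 1.5-fold in Splice del cells, and no mutant library overlapped the control range. GC adjustment gave values of -0.41, -0.27 and -0.22, lower in each line and not past 1.5-fold. IMP3 (-0.53, -0.42 and -0.34), NOB1, the nuclease that makes the end of the small subunit rRNA (-0.47, -0.30 and -0.29), and NOP14 (-0.31, -0.21 and -0.29) were lower in every mutant line. The A333fs call of IMP3 was lost in the GC-adjusted fit. NOP14 shares exon bases with its antisense transcript NOP14-AS1, and counting used no strand, so reads of the pair cannot be told apart.

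UTP20 was lower in Splice del (-0.34) and C321fs cells (-0.32), and PNO1, a partner of NOB1, was lower in Splice del cells (-0.28). UTP15, WDR43 and WDR36, which belong to the early processome, were higher in A333fs cells by 0.29, 0.25 and 0.23. The GC-adjusted A333fs values were -0.04, -0.08 and -0.09 and did not pass, while in Splice del cells all 3 passed as lower (-0.27, -0.29 and -0.28) and in C321fs cells UTP15 did (-0.20). For PNO1 they were -0.52, -0.29 and -0.23, lower in each line. The other 8 small subunit factors (UTP18, WDR3, HEATR1, DDX10, DDX52, TSR1, LTV1 and BMS1) passed in no comparison with control, with values from -0.19 for HEATR1 in Splice del to 0.22 for DDX52 in A333fs cells. With GC adjustment, all of these but TSR1 were lower in Splice del cells (-0.45 to -0.19), and UTP18, WDR3, HEATR1 and DDX10 also in C321fs cells (-0.31 to -0.15). HEATR1 and TSR1 share exon bases with LGALS8 and SRR, and BMS1 has 7 annotated pseudogenes, so that their counts are less certain.

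The large subunit assembly factors had 12, 9 and 8 of 17 members lower in Splice del, C321fs and A333fs cells and 0, 2 and 1 higher, with medians of -0.33, -0.27 and -0.10. In the GC-adjusted fit 16, 12 and 7 were lower and 0 higher. The shares of all tested genes were 22.4%, 20.7% and 26.4% lower and 18.7%, 16.1% and 21% higher, and 28.3%, 22.9% and 21.4% lower with GC adjustment. BOP1 on chromosome 8, which forms the PeBoW complex with PES1 and WDR12, was at 218, 279 and 247 CPM in control, at 118, 114 and 125 in Splice del, at 177, 147 and 147 in C321fs and at 131, 124 and 128 in A333fs libraries. No mutant library reached the control range, and the Splice del and C321fs libraries did not overlap. Its log2 fold changes were -1.06 (SE 0.085), -0.66 (SE 0.084) and -0.96 (SE 0.085), with edgeR adjusted p of 1.43e-07, 2.21e-05 and 3.31e-07. With an exon GC content of 65.6%, the highest among the members, BOP1 was at -0.85, -0.48 and -0.49 after removal of the GC and length trend, still lower in each line.

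PES1 (chr22:30576625-30607013, minus strand) was at 125, 139 and 121 CPM in control, at 84.5, 84.6 and 84.4 in Splice del, at 99.3, 92.1 and 89.1 in C321fs and at 92.7, 87.3 and 96.6 in A333fs libraries. Its log2 fold changes were -0.60, -0.46 and -0.48 (SE 0.063, 0.063 and 0.062; edgeR adjusted p 1.8e-06, 3.74e-05 and 1.13e-05). The GC-adjusted values were -0.46, -0.32 and -0.19, lower in each line and not past 1.5-fold. WDR12, the remaining PeBoW subunit, did not follow them, with values of -0.05, 0.06 and 0.14, none of which passed. After removal of the GC and length trend WDR12 stood at -0.30 in Splice del cells (edgeR adjusted p 0.000216), at -0.19 in C321fs (0.0122) and at -0.16 in A333fs cells (0.0275).

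NOC2L, a nucleolar protein that also binds histones (chr1:944203-959299, minus strand), was at 198, 228 and 196 CPM in control, at 115, 120 and 126 in Splice del, at 144, 134 and 135 in C321fs and at 126, 121 and 127 in A333fs libraries. It was past 1.5-fold in each line, by -0.79, -0.59 and -0.73 (SE 0.062; edgeR adjusted p 1.33e-07, 4.45e-06 and 2.23e-07), and shares exon bases with SAMD11. GC adjustment gave values of -0.63, -0.44 and -0.40, lower in each line and past 1.5-fold in Splice del. DDX56, an RNA helicase of large subunit precursors (chr7:44565417-44574538, minus strand), was at 230, 267 and 233 CPM in control, at 143, 143 and 145 in Splice del, at 166, 157 and 158 in C321fs and at 170, 160 and 175 in A333fs libraries. Its fold changes were -0.76, -0.60 and -0.53 (SE 0.06; edgeR adjusted p 1.29e-07, 3e-06 and 2.91e-06), with no overlap between mutant and control libraries, and the GC-adjusted values -0.64, -0.47 and -0.28, lower in each line.

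RRP1, a scaffold of large subunit precursors (chr21:43789537-43804102, plus strand), was at 85.5, 96.1 and 84.1 CPM in control, at 54.2, 57.4 and 57.5 in Splice del, at 68.7, 62.5 and 64.6 in C321fs and at 56.2, 59.4 and 57.2 in A333fs libraries. The values were -0.65, -0.44 and -0.62 (SE 0.062; edgeR adjusted p 8.17e-07, 4.62e-05 and 1.02e-06). The GC-adjusted values were -0.47, -0.29 and -0.28, lower in each line and not past 1.5-fold. NOP16 (chr5:176383937-176388762, minus strand) was at 62.2, 58.9 and 59.4 CPM in control, at 36.9, 41.7 and 40.8 in Splice del, at 49, 44.9 and 40.5 in C321fs and at 48.4, 46.4 and 43.9 in A333fs libraries. It was lower in each line, by -0.60, -0.43 and -0.38 (SE 0.072, 0.071 and 0.071; edgeR adjusted p 6.64e-06, 0.000195 and 0.000283). Its exon GC was 47.6%, and the GC-adjusted values were -0.69, -0.52 and -0.52. RRP1B, the paralog of RRP1, was called lower in Splice del cells (-0.23).

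RRS1 (-0.57, -0.40 and -0.30) and NOP2, an rRNA methyltransferase (-0.43, -0.36 and -0.28), were lower in every mutant line. Both A333fs calls were lost in the GC-adjusted fit. The helicase DDX27 was lower in Splice del (-0.30) and C321fs cells (-0.27), and EBNA1BP2 (-0.33) and NIP7 (-0.21) in Splice del cells. DDX18, another helicase, was higher in C321fs (0.25) and A333fs cells (0.30), and GNL3, which encodes nucleostemin, was higher in C321fs cells (0.26). The GC-adjusted values of DDX18 were -0.24, -0.07 and -0.03 and those of GNL3 -0.14, 0.07 and -0.08, so the higher calls were lost and both passed as lower in Splice del cells. GNL2 and BRIX1 passed in no comparison with control, with values from -0.08 to 0.18, but in the GC-adjusted fit BRIX1 was lower in each line (-0.33, -0.24 and -0.33). NIP7 (-0.28) and EBNA1BP2 (-0.17) were then lower in C321fs cells as well. WDR12, GNL2, GNL3, NIP7, EBNA1BP2 and WDR3 share exon bases with neighbouring genes (CARF, DNALI1, GLT8D1, COG8, CFAP57 and SPAG17), so that part of their counts is uncertain.

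**Figure D4:**
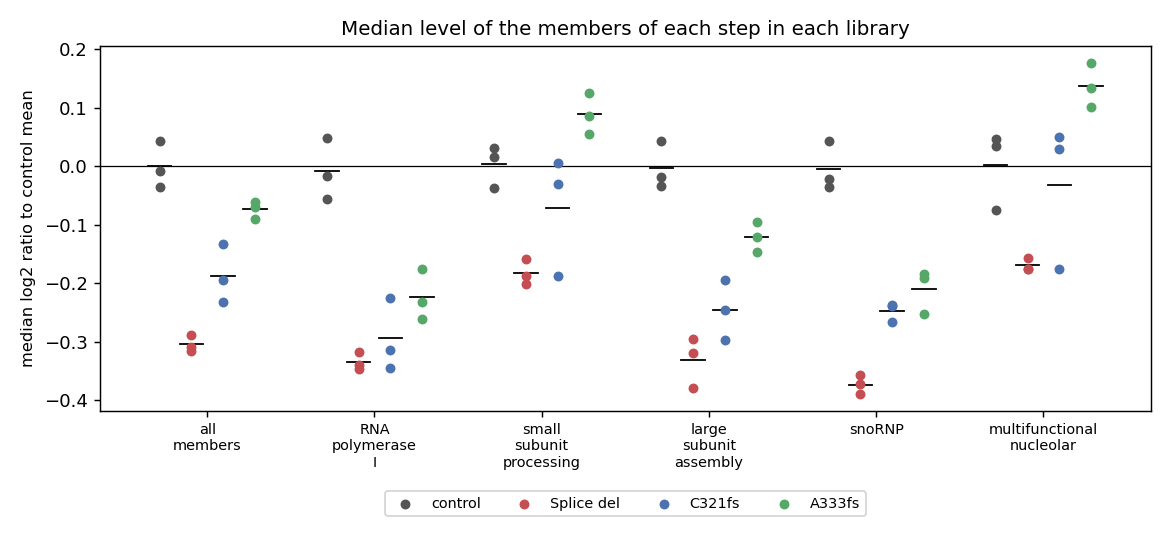
Median over the members of each step of the log2 ratio of a library's level to the control mean (y axis) for all members and for 5 groups of members; points are libraries and horizontal lines are means of 3 libraries. All 9 mutant libraries lie below the 3 control libraries for RNA polymerase I, the large subunit and snoRNPs, while with this TMM scaling A333fs libraries lie above control, at 0.05 to 0.12, for the small subunit, a direction that turned once the GC and length trend was removed.

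The snoRNP proteins had 6, 5 and 5 of 8 members lower in Splice del, C321fs and A333fs cells and 0, 1 and 0 higher, with medians of -0.37, -0.23 and -0.22. With GC adjustment, 7, 6 and 7 were lower and 0 higher. The shares of all tested genes were 22.4%, 20.7% and 26.4% lower and 18.7%, 16.1% and 21% higher, and 28.3%, 22.9% and 21.4% lower with GC adjustment. FBL, the fibrillarin methyltransferase of box C/D snoRNPs (chr19:39834453-39846414, minus strand), was at 198, 213 and 192 CPM in control, at 116, 124 and 122 in Splice del, at 166, 157 and 149 in C321fs and at 134, 129 and 136 in A333fs libraries. The 4 lines did not overlap, in the order control, C321fs, A333fs and Splice del. The log2 fold changes were -0.73, -0.35 and -0.60 (SE 0.057; edgeR adjusted p 1.07e-07, 0.000139 and 6.56e-07). GC adjustment gave values of -0.57, -0.21 and -0.37, lower in each line and not past 1.5-fold.

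NHP2, a protein of box H/ACA snoRNPs (chr5:178149465-178153960, minus strand), was at 190, 197 and 184 CPM in control, at 125, 130 and 134 in Splice del, at 159, 144 and 130 in C321fs and at 151, 143 and 145 in A333fs libraries. Its values were -0.55, -0.40 and -0.38 (SE 0.064; edgeR adjusted p 5.21e-06, 0.000135 and 0.000117). The GC-adjusted values were -0.38, -0.27 and -0.19, lower in each line. GAR1, of the same particle (chr4:109815510-109824737, plus strand), was at 35.6, 37.8 and 36.8 CPM in control, at 29.4, 28.2 and 28.7 in Splice del, at 29.6, 28.7 and 29.8 in C321fs and at 33.3, 31.5 and 31.6 in A333fs libraries. The decreases were -0.35, -0.32 and -0.19 (SE 0.055; edgeR adjusted p 7.2e-05, 0.000225 and 0.00654). The GAR1 call in A333fs cells was lost without control replicate 2 or 3, Splice del replicate 2 or A333fs replicate 2 or 3, with values from -0.22 to -0.14, and with upper-quartile factors (-0.08, edgeR adjusted p 0.237).

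DKC1, the pseudouridine synthase of box H/ACA snoRNPs, was called lower in Splice del cells (-0.38), and NOP10, the smallest of its partners, was at -0.20, -0.18 and -0.05 without passing. In the GC-adjusted fit DKC1 was lower in each line (-0.54, -0.25 and -0.24), and NOP10 in Splice del (-0.22) and C321fs cells (-0.24). DKC1 and NOP56 host snoRNA genes within the counted exons. NOLC1, a chaperone of both kinds of particle, was lower in every mutant line (-0.42, -0.27 and -0.24). Of the paired box C/D core proteins, NOP56 was lower in each line (-0.33, -0.19 and -0.26), while NOP58 was higher in C321fs cells (0.40, SE 0.11, edgeR adjusted p 0.00526) and at 0.14 and 0.10 in Splice del and A333fs cells. The GC-adjusted values of NOP58 were -0.14, 0.11 and -0.24, so that the higher call in C321fs cells was lost and the A333fs value passed as lower (edgeR adjusted p 0.0085). Those of NOP56 were -0.27, -0.13 and -0.16, of which the C321fs value did not pass.

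None of the 3 abundant multifunctional proteins was called lower in any line, although several values passed as lower once the GC and length trend was removed. NPM1 (nucleophosmin, chr5:171387704-171410884, plus strand), a chaperone of ribosomal proteins, was at 1477, 1621 and 1605 CPM in control, at 1470, 1488 and 1452 in Splice del, at 1591, 1740 and 1600 in C321fs and at 1890, 1980 and 1856 in A333fs libraries. All A333fs libraries were above all others. The log2 fold changes were -0.09, 0.07 and 0.28 (SE 0.056; edgeR adjusted p 0.174, 0.323 and 0.000431), and after removal of the GC and length trend they were -0.31, -0.16 and -0.01 (edgeR adjusted p 5.28e-06, 0.00674 and 0.915), so the higher value in A333fs cells was lost.

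NCL (nucleolin, chr2:231454748-231464494, minus strand), which binds the nascent precursor, was at 783, 832 and 802 CPM in control, at 713, 713 and 723 in Splice del, at 673, 817 and 807 in C321fs and at 865, 857 and 883 in A333fs libraries. C321fs replicate 1 fell below every other library, and the 3 values against control (-0.17, -0.07 and 0.11, SE 0.064) did not pass (edgeR adjusted p 0.036, 0.354 and 0.16). DDX21, an RNA helicase at RNA polymerase I and II genes (chr10:68956123-68985069, plus strand), was at 320.8, 337.7 and 355.1 CPM in control, at 293, 290 and 287 in Splice del, at 299, 350 and 367 in C321fs and at 353, 382 and 360 in A333fs libraries. Its values of -0.22, 0.00 and 0.11 (SE 0.067) did not pass either (edgeR adjusted p 0.0111, 0.977 and 0.169). After removal of the GC and length trend, DDX21 was lower in each line (-0.50, -0.25 and -0.19) and NCL in Splice del and C321fs cells (-0.34 and -0.23).

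Per kilobase of exon, the abundance of the members differed widely. In control libraries the mean level in RPKM (CPM divided by exon length in kilobases) was 881 ± 44.4 (SD, n = 3) for NPM1, 296 ± 9.21 for NCL, 223 ± 7.55 for NHP2 and 173 ± 9.39 for FBL, against 54.2 ± 3.51 for MYC and 11.4 ± 0.53 for POLR1A. The median member stood at 28.1 RPKM over all libraries and the median tested gene at 6.79 RPKM. The median RPKM of the snoRNP proteins, 85.4, was above that of the large subunit factors (37) and of the small subunit factors (18.2). RRN3 and DDX52 were counted over more than 1 contig, which lengthens their listed exons, and were left out of this ordering of single genes.

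MYC on chromosome 8 was among the most reduced members. It was at 123, 138 and 124 CPM in control, at 62, 61.7 and 65.7 in Splice del, at 82.5, 81.8 and 80.1 in C321fs and at 67.1, 67.4 and 68.4 in A333fs libraries. No 2 lines overlapped, in the order control, C321fs, A333fs and Splice del. The log2 fold changes against control were -1.02, -0.66 and -0.92 (SE 0.055 each), or 0.492, 0.635 and 0.527 of the control level, with edgeR adjusted p of 2.13e-09, 6.47e-07 and 4.6e-09. After removal of the GC and length trend they were -0.95, -0.59 and -0.80, and with library totals alone -0.84, -0.49 and -0.77, so MYC stayed lower in each line under both. With 1 library left out at a time, the values lay in ranges of -1.05 to -0.97 in Splice del, -0.69 to -0.60 in C321fs and -0.96 to -0.87 in A333fs cells.

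MYC also differed between mutant lines. Its level was lower in Splice del than in C321fs cells (-0.37, SE 0.055, edgeR adjusted p 0.000276) and lower in A333fs than in C321fs cells (-0.27, SE 0.055, edgeR adjusted p 0.002). The second call was lost without A333fs replicate 1 or A333fs replicate 2. Between A333fs and Splice del the difference was 0.10 (SE 0.055, edgeR adjusted p 0.21), and 0.15 (edgeR adjusted p 0.00987) after removal of the GC and length trend.

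The mutant lines were then compared with each other, with the control libraries entering only the scaling and the estimate of spread. A333fs cells had 17 of 55 members higher than Splice del cells and 0 lower, against 4.63% and 7.29% of all tested genes, and 53 of the 55 fold changes were positive with a median of 0.19 against -0.02 for all genes. None of the members passed 1.5-fold, as 3% of all genes did. The libraries of both lines did not overlap for 44 members (80%) and for 46.3% of all genes. The 17 members were POLR1A, POLR1B and RRN3 of RNA polymerase I, BYSL, UTP20, UTP18, WDR3, HEATR1 and PNO1 of the small subunit, DDX27, NIP7, EBNA1BP2 and RRS1 of the large subunit, DKC1 of the snoRNPs, and NCL, NPM1 and DDX21. With the GC and length trend removed, 36 members were higher, among them all of the 17 except UTP18, against 11% of all genes. The count was 9 without A333fs replicate 1, 7 without A333fs replicate 3, and 5, 7 and 8 without Splice del replicate 1, 2 and 3.

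The 3 multifunctional proteins all differed between these lines. NPM1 was higher in A333fs than in Splice del cells by 0.38 (SE 0.056, edgeR adjusted p 0.000235), DDX21 by 0.33 (SE 0.067, edgeR adjusted p 0.00245) and NCL by 0.28 (SE 0.064, edgeR adjusted p 0.00589). The DDX21 call was lost without any 1 of the Splice del libraries, the NCL call without any Splice del library or A333fs replicate 1 or 3, and NPM1 passed with any 1 library left out. POLR1A was higher by 0.33 (SE 0.075, edgeR adjusted p 0.00545) and BYSL by 0.29 (SE 0.06, edgeR adjusted p 0.0028). The POLR1A and BYSL calls were lost without Splice del replicate 1 or 2 or A333fs replicate 3, and that of BYSL also without A333fs replicate 1.

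**Figure D5:**
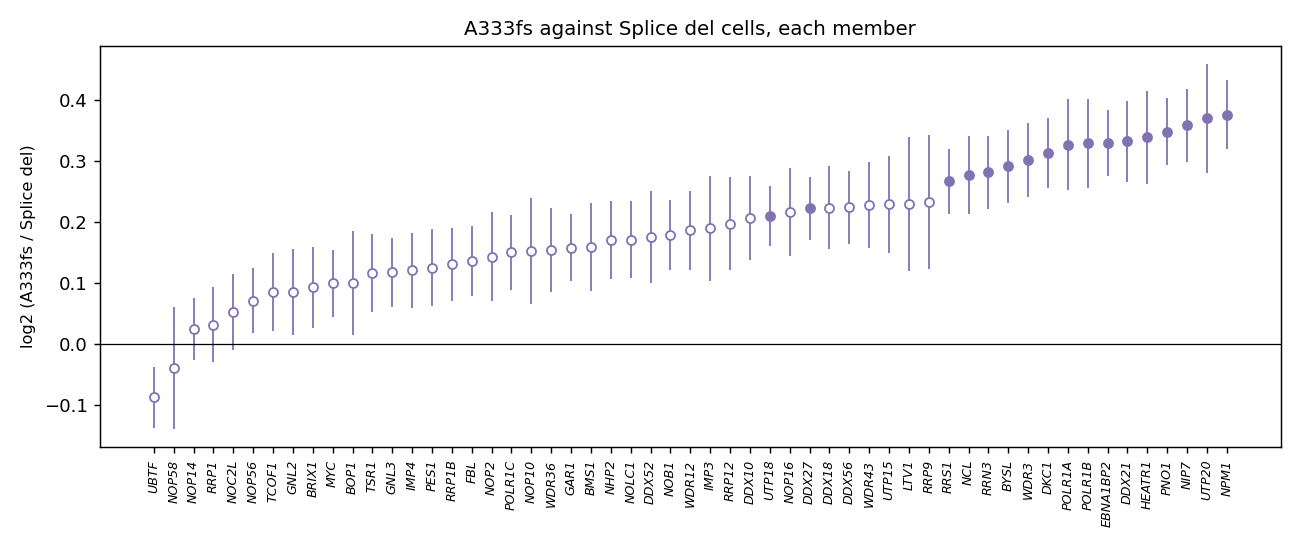
Log2 ratio of A333fs to Splice del cells (y axis) for each member in increasing order (x axis); points are fitted values, bars are ±1 SE and filled points have an adjusted p below 0.01. Of the 55 points 53 lie above zero and 17 are filled, from UTP18 at 0.21 to NPM1 at 0.38.

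Splice del cells had 4 members lower than C321fs cells (BYSL, BOP1, FBL and MYC) and 0 higher, against 2.14% and 4.18% of all tested genes, and none past 1.5-fold, as 2.64% of all genes were. All 55 fold changes were negative, with a median of -0.14 against -0.01 for all genes, and the libraries did not overlap for 26 members, or 47.3%, against 29.7% of all genes. BYSL was lower by -0.28 (SE 0.06, edgeR adjusted p 0.00585), BOP1 by -0.40 (SE 0.085, edgeR adjusted p 0.00492) and FBL by -0.38 (SE 0.057, edgeR adjusted p 0.00026). The count was 2 without any 1 of the Splice del libraries, where the BYSL and BOP1 calls were lost, and both were also lost without C321fs replicate 1, and BYSL without C321fs replicate 2. With the GC and length trend removed, 15 members were lower, against 6.43% of all genes.

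A333fs and C321fs cells differed in few members. POLR1A (0.29), UTP20 (0.35) and NPM1 (0.22) were higher in A333fs cells and FBL (-0.24) and MYC (-0.27) lower, or 3 higher and 2 lower against 6.8% and 8.89% of all tested genes. None of these passed 1.5-fold, as 5.55% of all genes did, and 23 members (41.8%) had libraries that did not overlap, against 40.6% of all genes. The edgeR adjusted p was 0.00907 for POLR1A, 0.00797 for UTP20, 0.00929 for NPM1 and 0.0047 for FBL. Of the 12 fits that left out 1 library, the POLR1A and NPM1 calls held in 3 each and the FBL call in 7. The GC-adjusted difference of NPM1 was 0.15 and did not pass (edgeR adjusted p 0.0129). With 1 library left out, the higher count ranged over 0 to 3 and the lower count over 0 to 3. It was 0 higher without A333fs replicate 3, any Splice del library or control replicate 3, 1 without C321fs replicate 1 or control replicate 1 or 2, and 0 or 1 lower without any A333fs library, C321fs replicate 1 or C321fs replicate 2.

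Other genes of the pathway were taken from wider lists. Their counts stand against 22.4%, 20.7% and 26.4% of all tested genes lower and 18.7%, 16.1% and 21% higher. With GC adjustment these shares were 28.3%, 22.9% and 21.4% lower and 12%, 9.08% and 10.2% higher. Of 71 other ribosome biogenesis factors, 35, 32 and 32 were lower in Splice del, C321fs and A333fs cells and 3, 4 and 10 higher, with medians of -0.22, -0.18 and -0.16. With GC adjustment, 53, 37 and 38 were lower and 0 higher. Those with the smallest p for any difference were DHX37 (-0.76, -0.67 and -0.74), a helicase of the small subunit processome, TBL3 (-0.84, -0.70 and -0.82), a subunit of the same particle, NLE1 (-0.87, -0.42 and -0.73), an assembly factor of the large subunit, and NOL6 (-0.68, -0.64 and -0.58). All of them were lower in each line. Of 15 other genes of RNA polymerase I, 7, 6 and 7 were lower and 2, 3 and 5 higher. In the GC-adjusted fit 8, 6 and 4 were lower and 0, 1 and 0 higher. These included CD3EAP (POLR1G), a subunit of the enzyme, at -0.75, -0.59 and -0.64, ZNRD1 (POLR1H) at -0.66, -0.43 and -0.43, and POLR2E and POLR2F, which several RNA polymerases share, at -0.64, -0.38 and -0.59 and at -0.69, -0.39 and -0.30. All 4 were lower in each line, but the GC-adjusted value of POLR2F in A333fs cells was -0.08 and did not pass.

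Of 11 genes of the MYC network, which encode partners and antagonists of MYC, 10 were tested, and 3, 1 and 4 were lower and 0, 1 and 0 higher. With GC adjustment, 3, 3 and 2 were lower and 1, 1 and 1 higher. Of all tested genes, 22.4%, 20.7% and 26.4% were lower and 18.7%, 16.1% and 21% higher, and with GC adjustment 28.3%, 22.9% and 21.4% lower and 12%, 9.08% and 10.2% higher. The lower calls, 30%, 10% and 40% of so few genes, lay about these shares, so the calls below describe single genes and not the list. MLX was lower in each line (-0.35, -0.33 and -0.21), also in that fit. MNT, an antagonist that also pairs with MAX, was lower in A333fs cells (-0.49), and at 0.05 and -0.26 in Splice del and C321fs cells without passing. ZBTB17, a partner through which MYC represses genes, was lower in A333fs cells (-0.36), and at -0.11 in both other lines. The GC-adjusted A333fs values of MNT (-0.13) and ZBTB17 (0.02) did not pass. MXI1, another antagonist, was higher in C321fs cells (0.66, edgeR adjusted p 0.000321) and at 0.21 and -0.11 in the others, and it was lower in A333fs than in C321fs cells (-0.77, edgeR adjusted p 0.000168).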

How the data were processed

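The deposited table held whole-number counts of read pairs per gene, made by the authors with featureCounts 1.6.4 on hg38 without strand after trimming with Trimmomatic. The alignment tool was not settled, since the submitters' processing notes name HISAT2 and the column headers name another tool. ChIP-seq of the same lines was not used here. All 12 libraries were fitted together in edgeR 4.0.16 (R 4.3.3) with TMM scaling, filterByExpr by line and glmQLFTest, and p-values were Benjamini-Hochberg adjusted over 14789 genes. The procedure was tested on simulated data. RPKM used the length listed by featureCounts. The members, steps and lists were chosen with earlier results of these data known. Values in every library were given for MYC, NCL, NPM1, DDX21, the 4 members (3 for RNA polymerase I and snoRNPs) with the smallest p for any difference in each step, and every member past adjusted p 0.01 and 1.5-fold, and 4 genes at most of each wider list were named by the same p.

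Positions are from the exon coordinates of the count table, and exon GC was read from hg38 over those exons. The GC and length trend was a loess fit (span 0.3) of each library's deviation in log2 CPM (prior count 2) over genes outside the lists, applied as offsets. Promoters came from RefSeq. Replicate numbers did not pair the libraries: same-numbered libraries of 2 lines deviated from their line means with a mean correlation of -0.00915 (range -0.123 to 0.165, 18 pairs). Alternatives were other scalings, filters and limits, DESeq2 1.42.0, pairs of lines fitted alone, a replicate block, the GC and length trend and each library left out.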

Additional observations from a re-analysis of the deposited data

Results flagged for a closer look

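Only the members described above with values in every library were considered here. Log2 differences with an edgeR adjusted p below 0.01 are given. Among these members, the same member differed between 2 mutant lines, by a test of the difference itself, in 13 cases. In Splice del against C321fs cells these were BYSL (-0.28), BOP1 (-0.40), FBL (-0.38) and MYC (-0.37). In A333fs against C321fs cells they were POLR1A (0.29), FBL (-0.24), NPM1 (0.22) and MYC (-0.27). The NPM1 difference was lost with the GC and length trend removed (0.15, edgeR adjusted p 0.0129). In A333fs against Splice del cells they were POLR1A (0.33), BYSL (0.29), NCL (0.28), NPM1 (0.38) and DDX21 (0.33). Of these, MYC and FBL in Splice del against C321fs cells and NPM1 in A333fs against Splice del cells passed in all 12 fits that left out 1 library. Lines of 3 libraries were too small for a test of outlying libraries.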

How the results depend on the processing

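The 66 differences of named members followed here were those that passed with TMM scaling, and MYC in A333fs against Splice del. Other differences of named members were left out, so calls that they gained under another setting were not counted. Of the 66, DESeq2 kept the direction and the side of the threshold of 66, RLE factors 65, a replicate block 64 and no filter on low counts 64. Upper-quartile factors kept 63, the removed GC and length trend 61, fits of each pair alone 60 and library totals alone 58. The replicate block lost BYSL in Splice del against C321fs (adjusted p 0.0119) and GAR1 in A333fs against control (0.0111). Counts below are in the order Splice del, C321fs and A333fs against control. Lower members numbered 21, 16 and 15 with library totals alone and 52 in Splice del with the GC and length trend removed. Higher members numbered 5, 9 and 19 with library totals alone, 6 in C321fs and 18 in A333fs with upper-quartile factors, 0 in C321fs and A333fs with the trend removed, 5 and 12 at an adjusted p below 0.05, and 10 in A333fs with the pair fitted alone. Members past 1.5-fold numbered 5, 1 and 2 with library totals alone, 9, 2 and 3 with upper-quartile factors and 9, 2 and 1 with the trend removed. In Splice del against C321fs, lower members were 7 with DESeq2, 15 with the trend removed and 9 below 0.05. In A333fs against C321fs, higher members were 7 with DESeq2, 6 with the trend removed, 12 below 0.05, 0 with the pair alone, 1 with library totals alone and 6 without a filter, and lower members were 4, 5 and 1 with the trend removed, below 0.05 and with the pair alone. In A333fs against Splice del, higher members were 36 with the trend removed, 26 below 0.05 and 11 with library totals alone. NPM1 in A333fs against control turned to -0.007 and MYC in A333fs against Splice del passed at 0.15 with the trend removed. With 1 library left out, in which case a line of 2 libraries shares the spread of the others, lower counts against control ranged over 30 to 37, 23 to 28 and 18 to 24, higher counts over 1 to 6 in C321fs and 3 to 9 in A333fs, and counts past 1.5-fold over 11 to 16, 4 to 8 and 5 to 8. The range was 2 to 5 lower in Splice del against C321fs, 0 to 3 lower and 0 to 3 higher in A333fs against C321fs, 5 to 20 higher in A333fs against Splice del, 36 to 46 for any difference, and -0.28 to -0.23 for MYC in A333fs against C321fs. The share of all genes called was not counted for the other scalings, and the causes of these changes were not tested.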
